A study of Homo sapiens with 6 samples.

Results

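The HOXD cluster is a row of 9 homeobox genes on chromosome 2, from HOXD13 through HOXD12, HOXD11, HOXD10, HOXD9, HOXD8, HOXD4 and HOXD3 to HOXD1. Its methylation was read from every region of the authors' deposited table that overlaps the RefSeq span of one of these genes or lies within 10 kb of it, which gave 45 of 35130 regions. DNA came from M07e, an acute megakaryoblastic leukemia cell line kept in medium with fetal bovine serum and GM-CSF, and was profiled by reduced representation bisulfite sequencing (RRBS). In RRBS, DNA is cut with MspI at CCGG and treated with bisulfite, so that mainly CpG-rich sequence is read. There were 6 libraries: 3 of the genotype DNMT3B knockout, made with CRISPR, and 3 of the genotype WT, the control. Both groups were the same cell line in the same medium, and the labels do not say whether the knockout was 1 clone or whether replicates came from separate cultures.

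HOX genes encode transcription factors that give cells a position along the body axis. In a cluster they lie in the order in which they act, with the genes of posterior structures, such as HOXD13, at one end and those of anterior structures, such as HOXD1, at the other. In cells that do not use them they are commonly held silent by Polycomb complexes, and in many cancers the CpG islands of HOX clusters gain DNA methylation. DNMT3B is an enzyme that places methyl groups on CpG sites not yet methylated.

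The table holds 1 mean methylation percent per group and region, so the spread between libraries and the depth are unknown. The column named M07e_WT is the control. The number in the name of the other column, M07e_3883, does not occur in the labels. That column was read as the knockout, the only other genotype, and the directions below depend on this reading. DNMT3B itself had 3 regions within 10 kb, none of them called, and methylation there does not check the edit.

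The letters of the RefSeq promoter windows (GRCh38.p14) showed what a region and its site number are. Each window runs from 250 bases before to 50 bases after the start of a gene. Of the table's regions, 2501 lay inside such windows, and in all 2501 both the first and the last base, counted as the file start plus 2 and the file stop plus 1, belonged to a CG dinucleotide. The site number of the table was larger than the number of CG dinucleotides in 1897 of the 2501 (75.8%) and never larger than the number of cytosines on both strands. It is therefore called the number of cytosines here: 1 CpG can count for each of its strands. Coordinates on hg38 are given from the first to the last of these cytosines, 1-based.

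Windows were at hand for 8 of the 9 HOXD genes, all on the plus strand, and regions of the table overlapped 3 of them. These 3 are shown because they are the only windows of the cluster with a measurement. Capitals mark the bases inside a region of the table.
HOXD11, chr2:176107030-176107329: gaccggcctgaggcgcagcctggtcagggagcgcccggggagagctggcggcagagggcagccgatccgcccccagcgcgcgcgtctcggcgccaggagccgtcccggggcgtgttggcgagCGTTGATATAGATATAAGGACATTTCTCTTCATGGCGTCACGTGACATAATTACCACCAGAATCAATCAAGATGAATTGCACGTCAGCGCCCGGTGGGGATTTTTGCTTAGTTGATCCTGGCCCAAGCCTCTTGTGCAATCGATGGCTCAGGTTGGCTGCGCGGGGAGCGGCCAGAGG
HOXD3, chr2:176157057-176157356: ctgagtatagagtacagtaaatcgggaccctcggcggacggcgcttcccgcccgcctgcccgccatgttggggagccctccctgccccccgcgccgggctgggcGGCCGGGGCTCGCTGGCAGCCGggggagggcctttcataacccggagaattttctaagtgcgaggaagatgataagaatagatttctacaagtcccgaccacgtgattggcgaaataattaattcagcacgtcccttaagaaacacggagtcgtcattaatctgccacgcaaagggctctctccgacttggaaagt
HOXD1, chr2:176188418-176188717: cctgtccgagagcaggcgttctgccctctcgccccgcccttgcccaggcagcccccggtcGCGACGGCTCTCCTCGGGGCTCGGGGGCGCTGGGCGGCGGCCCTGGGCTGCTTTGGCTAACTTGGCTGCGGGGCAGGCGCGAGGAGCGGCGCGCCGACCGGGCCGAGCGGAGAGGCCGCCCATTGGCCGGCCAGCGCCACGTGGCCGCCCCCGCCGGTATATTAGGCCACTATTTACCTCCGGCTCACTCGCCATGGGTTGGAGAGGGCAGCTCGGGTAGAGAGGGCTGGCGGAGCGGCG
All 8 windows contained CCGG, the MspI site, which reads the same on both strands and includes a CG, against 63.1% of all 35116 windows in the RefSeq table. The number of CG dinucleotides was 36 in the HOXD1 window, 34 at HOXD8, 27 at HOXD11, 25 at HOXD3, 24 at HOXD13, 23 at HOXD10, 19 at HOXD12 and 4 at HOXD4, beside a median of 14 over all windows. The HOXD windows other than that of HOXD4 were thus richer in CG than the median window.

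Calls needed a q-value of the authors under 0.01 together with a difference, knockout minus control, of at least 25 percentage points in either direction. Methylation at HOXD passed this rule in 3 regions. It rose in a region inside HOXD13 and fell in regions inside HOXD12 and HOXD8. These 3 are 6.67% of the 45 regions, against 6.74% of all regions in the authors' deposited table, so the share called at HOXD was close to the background. The share called higher was 2.22% at HOXD (1 region) against a background of 4.57%, and the share called lower was 4.44% (2 regions) against 2.17%. The authors' tests did not take libraries as their points: the Mann-Whitney p of the HOXD8 region was 2.17e-07, whereas an exact rank test of 3 libraries against 3 cannot go below 0.1. The q-values therefore do not measure the spread between libraries.

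**Figure D1:**
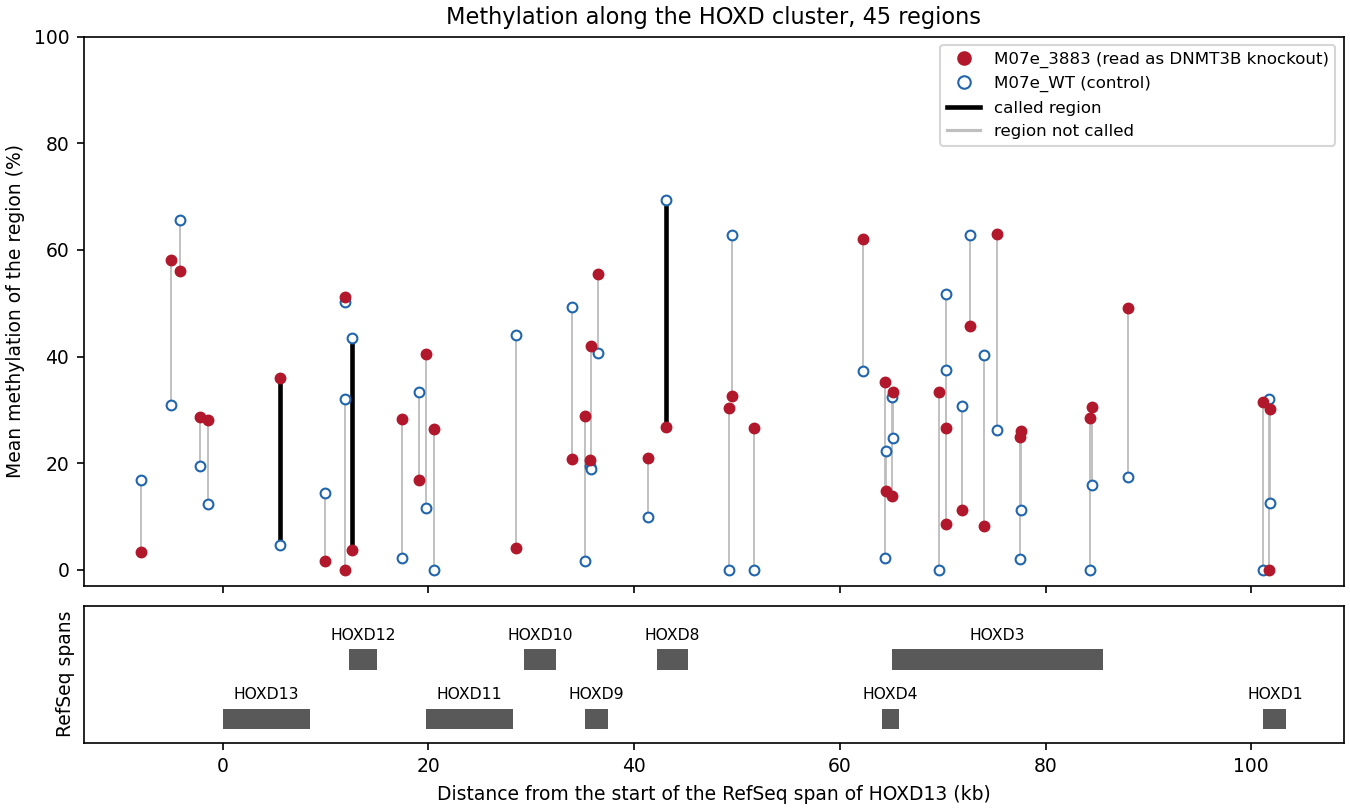
Mean methylation (%) of each of the 45 HOXD regions in M07e_3883, read as the knockout (filled), and M07e_WT, the control (open), against the distance in kb from the start of the HOXD13 span; lines join the 2 means of a region, and grey bars below are the RefSeq gene spans. The 3 black lines are the called regions, upward to the knockout at HOXD13 (36.0% against 4.73%) and downward at HOXD12 (3.70% against 43.4%) and HOXD8 (26.8% against 69.3%).

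HOXD13, a factor of digit and genital development whose gene is also a fusion partner of NUP98 in myeloid leukemia, held the one called gain. The region at chr2:176092980-176093170 had 36.0% methylation in the knockout and 4.73% in the control over 31 cytosines, a difference of 31.3 points (authors' q = 0.00138). It had the most cytosines of all HOXD regions, lay inside the gene and began 259 bases after the start used for its promoter window. The other 6 regions nearest to HOXD13 lay outside its span, and 3 of them were inside EVX2, the even-skipped homeobox gene next to the cluster. The first of these had 3.24% in the knockout and 16.9% in the control (q = 0.00644, difference -13.6 points). The second had 58.0% in the knockout and 31.0% in the control over 13 cytosines (q = 0.0304), and the last 56.1% against 65.6% (q = 0.953). Between EVX2 and HOXD13, regions of 10 and 12 cytosines had 28.7% and 28.1% in the knockout, and 19.5% and 12.3% in the control (q = 1 and 0.415). A short region of 5 cytosines within 8 bases, 1548 bases past the end of HOXD13, had a low q of 8.39e-06 but a small difference, with 1.71% in the knockout and 14.4% in the control. Thus regions before the gene were of both directions, and the one past its end was lower in the knockout.

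HOXD12, another posterior gene, had 3 regions, and its called region was lower in the knockout. At chr2:176100051-176100141, inside the gene and 256 bases after its start, methylation was 3.70% in the knockout and 43.4% in the control over 18 cytosines, a difference of -39.7 points (authors' q = 0.000538). Both regions before the gene adjoined each other. One of 5 cytosines, 432 bases before the gene, was at 0 in the knockout and 32.0% in the control (q = 1). The next, of 7 cytosines and 401 bases before the gene, had 51.1% in the knockout and 50.2% in the control (q = 1).

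HOXD11, also known as a NUP98 fusion partner, had 5 regions and none called. The region that covers its start, chr2:176107152-176107386, includes the capitals of the HOXD11 window shown above, 178 bases with 10 CG dinucleotides. It had 40.6% in the knockout and 11.7% in the control over 8 cytosines (difference 28.9 points, q = 0.127). A region further inside the gene was at 26.4% in the knockout and 0 in the control (q = 1). Of the 3 outside the gene, one had 28.3% in the knockout and 2.22% in the control (q = 0.953), and another 16.8% against 33.4% (q = 0.322). The largest difference was at chr2:176116007-176116047, between HOXD11 and HOXD10, with 4.11% in the knockout and 44.0% in the control over 5 cytosines (difference -39.9 points). Its q of 0.0236 missed the threshold although its difference was about that of the called HOXD12 region, which had 18 cytosines.

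HOXD10, known as a target of the microRNA miR-10b, had no region inside its span and was not the nearest gene of any region. Within 10 kb of it lay 9 regions, none called, and the closest was the one just described, 731 bases before its start. Its own promoter methylation was therefore not measured in this table.

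HOXD9, the most anterior gene of the posterior group, had 5 regions, 4 of them inside the gene, and none was called. The region across the start of its span, chr2:176122640-176122734, had 28.9% in the knockout and 1.56% in the control over 15 cytosines (difference 27.3 points, q = 0.0953). The other regions inside the gene had 20.7% in the knockout against 19.6% in the control (q = 1), 42.0% against 19.0% (q = 0.475) and 55.6% against 40.7% (q = 0.759). All 4 inside the gene had the higher mean in the knockout, by 1.11 to 27.3 points. The region before the gene went the other way, with 20.8% in the knockout and 49.2% in the control (q = 0.356).

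HOXD8, the central gene of the cluster, held the called region with the lowest q. At chr2:176130552-176130615, inside the gene and 847 bases after its start, methylation was 26.8% in the knockout and 69.3% in the control over 21 cytosines, a difference of -42.5 points (authors' q = 3.5e-09). This was both the largest difference and the highest control level among the 45 regions. The region before the gene had 20.9% in the knockout and 9.81% in the control (q = 0.318). Of 3 regions past its end, 2 lie in the antisense gene HOXD-AS2, 1 at 30.4% in the knockout and 0 in the control (q = 1) and 1 at 32.6% in the knockout and 62.8% in the control (q = 0.385). The farthest was at 26.7% in the knockout and 0 in the control (q = 1).

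**Figure D2:**
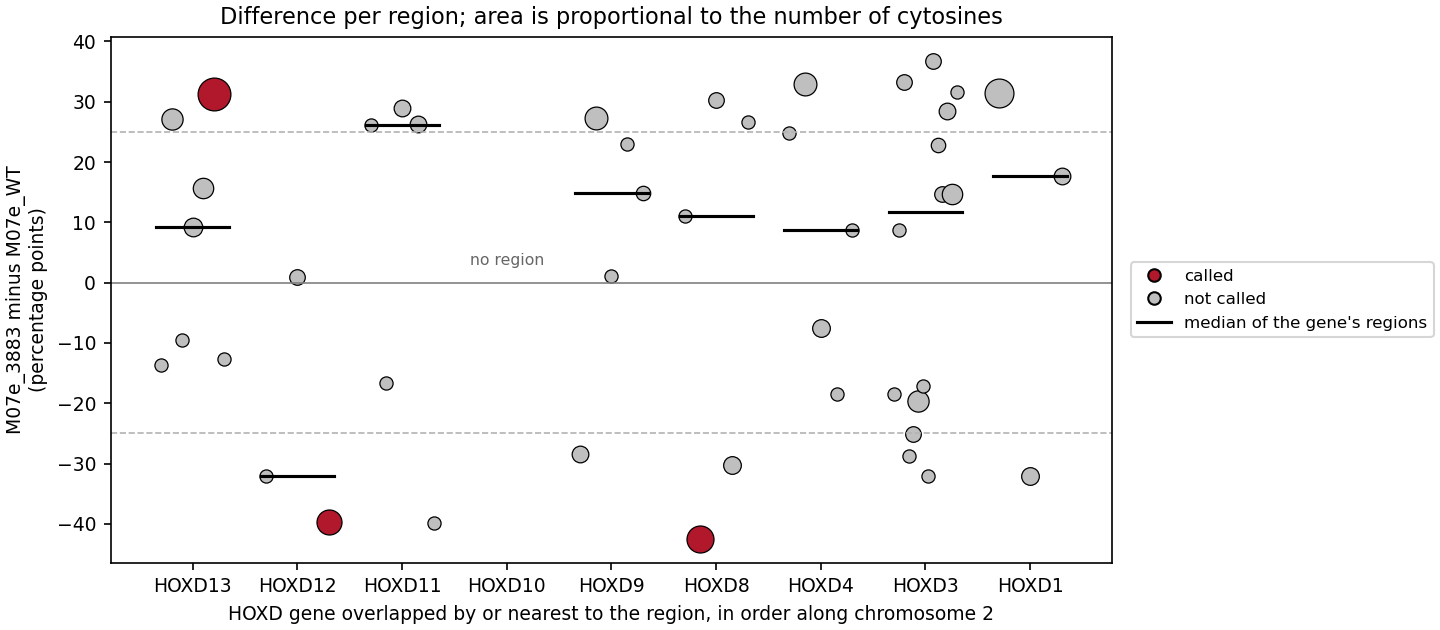
Difference in methylation (M07e_3883 minus M07e_WT, percentage points) of each region, by the HOXD gene that it overlaps or lies nearest to; the point area is proportional to the number of cytosines, the short lines are medians, the dashed lines the limit of 25 points, and 2 regions that overlap HOXD4 and HOXD3 appear under both. Medians lie between -32.0 points at HOXD12 and 26.1 points at HOXD11, and the called regions (red) are large points at HOXD13, HOXD12 and HOXD8.

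HOXD4, an anterior gene next to the miR-10b gene MIR10B, had 5 regions and none called. Its region of most cytosines, 15 at chr2:176151828-176151904, had 35.2% in the knockout and 2.22% in the control (difference 33.0 points, q = 0.096). The next region, of 9 cytosines, had 14.8% in the knockout and 22.3% in the control (q = 1). The region closest to MIR10B lay 522 bases before its hairpin, with 62.1% in the knockout and 37.3% in the control (q = 0.475). The 2 remaining regions lie in the overlap of the HOXD4 and HOXD3 spans. They had 13.8% and 33.4% in the knockout, and 32.4% and 24.8% in the control (q = 0.695 and 1).

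HOXD3, an anterior gene with the longest span of the cluster, had 14 regions, 13 of them inside the gene, and none was called. The region in its promoter window, the 22 capitals shown above, spans 4 CG dinucleotides, counting the one whose G is the first base, and gave 7 cytosines. It was at 33.3% in the knockout and 0 in the control (q = 1). A stretch further inside the gene then ran the other way: 5 successive regions from chr2:176157836 to 176161574 had the lower mean in the knockout. The first of these had 8.66% in the knockout and 37.4% in the control (q = 0.0431), and the adjoining one 26.7% against 51.8% (q = 0.102). The third had 11.1% against 30.7% over 13 cytosines (q = 0.259), the fourth 45.7% against 62.8% (q = 1), and the fifth 8.19% against 40.3% (q = 0.205). All 5 had more than 20% in the control. Of the table's regions with 20% to under 50% in the control, 44.2% had the higher mean in the knockout. With 50% or more it was 30.8%. The 6 regions of HOXD3 after this stretch all had the higher mean in the knockout, by 14.8 to 36.8 points. Among them the largest difference was at chr2:176162725-176162791, with 63.0% in the knockout and 26.2% in the control (q = 0.319). The last of them lies past the gene within HAGLR, with 49.1% in the knockout and 17.4% in the control (q = 0.0744). HAGLR is a long noncoding RNA gene whose span reaches from just past HOXD3 to just past the start of HOXD1.

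HOXD1, the most anterior gene, had 3 regions, all overlapping the gene, and none was called. The region at chr2:176188478-176188725 also overlaps HAGLR and covers most of the HOXD1 window shown above, with 240 bases and 31 CG dinucleotides in capitals. It had 31.5% in the knockout and 0 in the control over 24 cytosines (q = 1). The second region had the reverse levels, 0 in the knockout and 32.1% in the control over 9 cytosines (q = 1). The third had 30.1% in the knockout and 12.5% in the control (q = 1). Only the called HOXD13 region had more cytosines than the region of 24.

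At all 3 promoter windows with a region the mean was higher in the knockout, by 28.9 points at HOXD11, 33.3 at HOXD3 and 31.5 at HOXD1, and none of the 3 was called. All 3 had under 20% methylation in the control, and 83.2% of such regions in the whole table had the higher mean in the knockout. At HOXD3 and HOXD1 the control was at exactly 0, a value common in the table. The called regions lay outside every window: the one at HOXD13 began 210 bases past its window, while those at HOXD12 and HOXD8 began 256 and 847 bases after the starts of their genes.

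Over the cluster, 27 regions had the higher mean in the knockout and 18 the lower. Over all regions of the table, 68.4% had the higher mean in the knockout. The median difference was 11.1 points at HOXD and 17.4 points over all regions. The median level was 28.3% in the knockout and 19.6% in the control at HOXD, and 30.9% in the knockout and 7.59% in the control over all regions. Weighted by the number of cytosines, the mean difference was 5.22 points at HOXD and 13.5 points over all regions. No test between HOXD and the rest was made, since regions are not replicates.

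The direction went with the control level. Of 23 HOXD regions with under 20% methylation in the control, 21 had the higher mean in the knockout (91.3%, against 83.2% of such regions in the whole table). Of 16 regions with 20% to under 50% in the control, 5 did (31.3%, against 44.2%), and of 6 with 50% or more, 1 did (16.7%, against 30.8%). Since the same control value enters both the class and the difference, some of this pattern follows from the classing. Levels of the knockout and the control were hardly related across the 45 regions (Pearson r = 0.06, against 0.40 across all 35130), a description over regions that share the same 6 libraries. This was not particular to HOXD: r was 0.04 at the HOXA cluster, 0.17 at HOXB and 0.47 at HOXC.

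**Figure D3:**
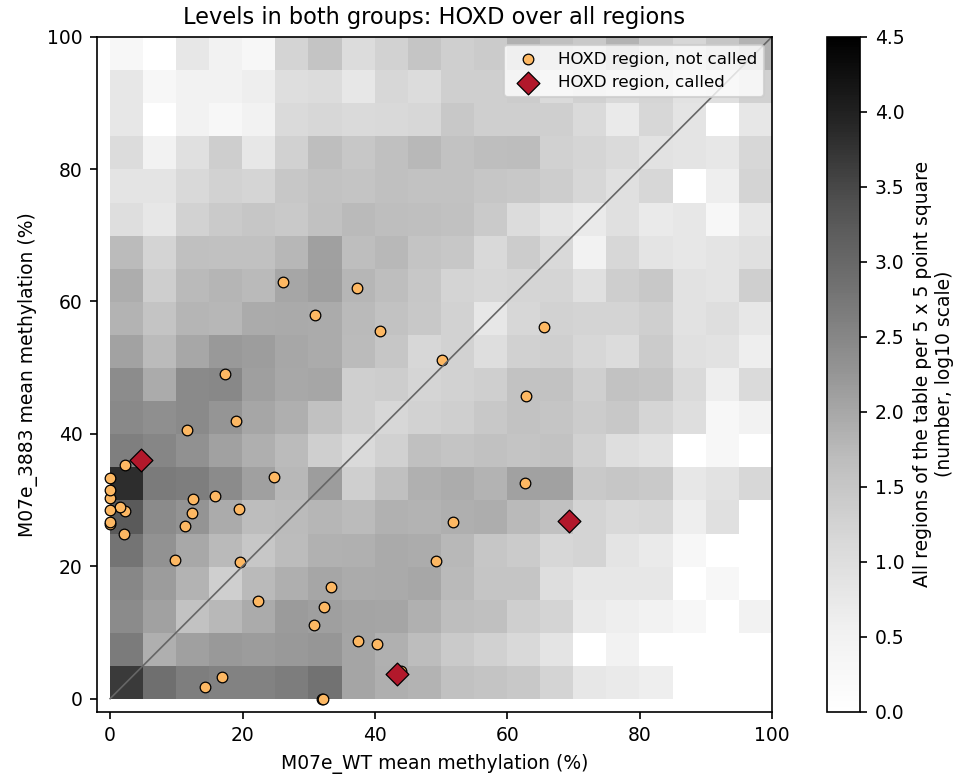
Mean methylation in M07e_3883 (vertical axis, %) against M07e_WT (horizontal axis, %) for the 45 HOXD regions over the number of all regions of the table per square (grey, log10 scale); the line marks equal levels. HOXD regions with a control level under 20% lie mostly above the line, and all but 1 of the 6 with 50% or more lie below it.

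Several HOXD means sat at values that are common in the table. In 6 regions the control was at exactly 0 and the knockout between 25% and 33.3%, and in 2 regions the knockout was at 0 and the control in that range. All 8 had q = 1, among them the promoter regions of HOXD3 and HOXD1. Such regions made up 17.8% at HOXD and 23.2% of the table. Knockout means between 25% and 33.3% were found in 16 of the 45 regions (35.6%, against 32.0% of all), and the called HOXD8 region is one of them. Control means in that range were found in 6 HOXD regions (13.3%, against 9.95% of all). The part of missing sites or shallow coverage in these values was not tested, since the table gives no coverage.

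Called regions at HOXD had many cytosines. Of 11 regions with 10 or more cytosines 3 were called (27.3%, against 16.0% of such regions in the table), and of 34 with fewer none was (against 4.06%). The 3 called regions lay inside genes, among 27 regions inside (11.1% called) and 18 outside the 9 genes (0% called), beside 6.74% of all regions. The share called inside genes over the whole table was not computed, so no preference for gene bodies can be read from this. By position, 2 of 20 regions assigned to the posterior genes HOXD13 to HOXD9 were called, 1 of 5 at HOXD8 and 0 of 20 at the anterior genes HOXD4 to HOXD1, beside 6.74% of all regions. These numbers are too small to set the ends of the cluster apart from each other or from that share, and no test was made. A difference of at least 25 points, whatever its q, was found in 10 of 20 regions at the anterior genes and in 10 of 20 at the posterior genes, each with 6 higher and 4 lower in the knockout. Of all 35130 regions, 52.0% differed by as much, 14523 higher and 3756 lower, so the share of both directions together was close to the background at both ends. The lower ones made up a larger part of these regions at each end than in the whole table, which was not tested. Neighbouring regions shared a direction in 23 of 44 pairs, and in 10 of 20 pairs at most 1000 bases apart.

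The same rule was applied to the other HOX clusters. At HOXD 3 of 45 regions were called (6.67%), against 5 of 41 at HOXA (12.2%), 6 of 36 at HOXB (16.7%) and 8 of 38 at HOXC (21.1%). The called regions were 1 higher and 2 lower at HOXD, 1 higher and 4 lower at HOXA, 4 higher and 2 lower at HOXB, and 7 higher and 1 lower at HOXC. Median differences were 11.1 points at HOXD, 18.2 at HOXA, 27.0 at HOXB and 14.7 at HOXC, beside 17.4 over all regions. The differences between clusters, and from the whole table, were not tested.

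**Figure D4:**
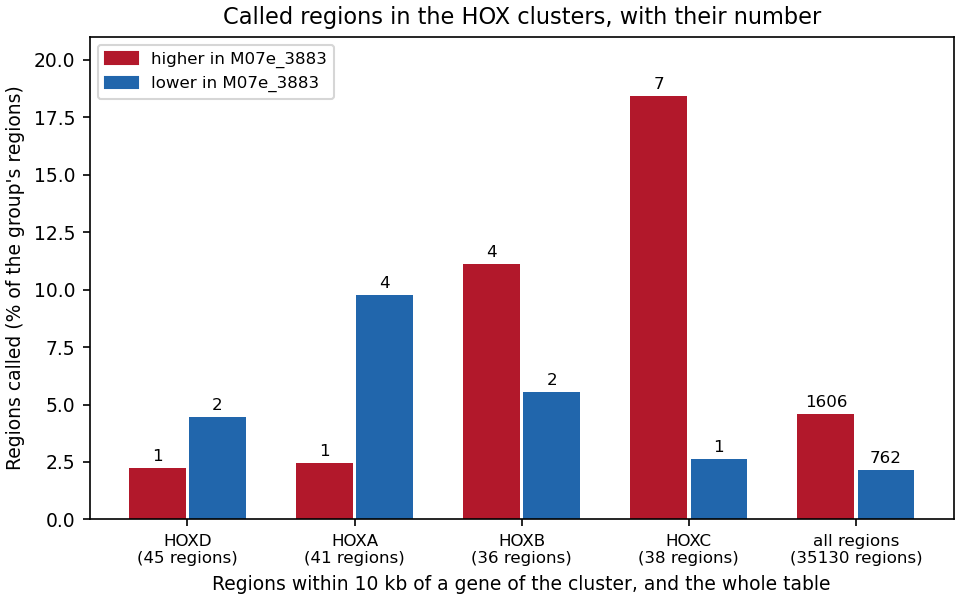
Share of regions called higher (red) and lower (blue) in M07e_3883 within 10 kb of the genes of each HOX cluster and in the whole table (% of the regions of each group); the number above each bar is the number of called regions. HOXD has 1 called higher and 2 called lower of 45 regions, against 1606 and 762 of 35130 regions in all.

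Genes next to the cluster, cofactors and regulators were counted by the same rule. Of 8 neighbours of the cluster (EVX2, LNPK, MTX2, HAGLR, HAGLROS, HOXD-AS2, MIR10B and MIR7704), 7 had regions within 10 kb, and their 2 called regions of 31 are those of HOXD13 and HOXD8 described above. This share of 6.45% was close to the 6.74% of all regions. Of 9 HOX cofactor genes of the MEIS, PBX and PKNOX families, whose products bind DNA together with HOX proteins, 4 had a called region. All 5 called regions of 41 were higher in the knockout (12.2% called, against 6.74% called and 4.57% called higher in the table). The region inside PBX3 had 61.1% in the knockout and 2.38% in the control (q = 0.000456), one inside MEIS3 47.8% against 4.41% (q = 0.000328), and one 8598 bases from MEIS1 57.2% against 14.4% (q = 4.71e-05). Of 22 genes of Polycomb and trithorax proteins, which keep HOX genes silent or active, 5 had a called region, with 5 of 93 regions higher and 2 lower in the knockout (7.53% called). Near CBX6, a Polycomb subunit gene, a region of 5 cytosines had 85.8% in the knockout and 10.5% in the control (q = 5.3e-05). A region between CBX2 and CBX8 had 4.81% in the knockout and 47.6% in the control (q = 0.0055), and 3 other regions near CBX8 were higher in the knockout, the largest with 41.3% against 5.32% (q = 0.000331).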

How the data were processed

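Methylation was measured by RRBS in 3 DNMT3B knockout and 3 control libraries of M07e. Per the submitters' processing notes, the build was hg38 and the tools included Bismark, HISAT2, methylKit, Trimmomatic and FastQC; which program made the regions is not stated there. Per the file headers, the authors deposited, for each region, 1 mean methylation percent per group, the difference in percentage points, the number of CpG sites, a Mann-Whitney p-value, a 2-dimensional Kolmogorov-Smirnov p-value and a q-value. The deposited difference equalled knockout minus control within 0.01 points in all 45 HOXD regions. Values of single libraries, reads and coverage were not analysed here, so no depth, interval or new test could be given, and the planned model across libraries was not run.

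From these values, regions were matched to RefSeq spans (GRCh38.p14) and called at q under 0.01 and at least 25 points. A region was assigned to every HOXD gene it overlaps, otherwise to the nearest one. Python 3.11.15, pandas 2.3.3 and numpy 2.4.6 were used, and the matching and the Benjamini-Hochberg adjustment were checked on simulated data. All 9 HOXD genes and every region of theirs are described. Of the cofactor and regulator lists, up to 3 genes with a called region were named, by the size of the difference. The genes and lists were chosen with earlier results of these data known. Other settings tried were both thresholds, another adjustment, the distance to a gene, the number of cytosines, regions at 0 in one group, and weighting by cytosines.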

Additional observations from a re-analysis of the deposited data

How the results depend on the processing

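Of the 45 HOXD regions 3 were called, 1 higher and 2 lower in the knockout. Of all regions 6.74% were, 4.57% higher and 2.17% lower. With a difference of at least 10 points 5 were called, 1 higher and 4 lower. Of all regions 8.6% were, 5.33% higher and 3.27% lower. With at least 40 points 1 was called, 0 higher and 1 lower, at HOXD8, against 3.42% of all regions, 2.33% higher and 1.09% lower. With q under 0.05 there were 6, 2 higher and 4 lower, against 10.5% of all regions, 7.05% higher and 3.41% lower. With q under 0.001 there were 2, 0 higher and 2 lower, so that the gain at HOXD13 was no longer called. Of all regions 3.31% were called at that threshold, 2.26% higher and 1.04% lower. When the deposited Kolmogorov-Smirnov p was adjusted over all regions by the Benjamini-Hochberg method, 3 were called, 1 higher and 2 lower. Of all regions 4.12% were, 2.79% higher and 1.32% lower. The counts of 3, 1 and 2 were also the same with the distance set to 0, 5000 or 20000 bases, with at least 5 or 10 cytosines, and without regions at 0 in one group and 25% to 33.3% in the other. None of these settings could remove the 3 called regions, so the unchanged counts are no test of them. The called regions lie inside genes, have more than 10 cytosines and are not at 0 in either group. All 45 regions have at least 5 cytosines, and the distance of 20000 bases can only add regions. Of all regions with at least 5 cytosines 6.79% were called, 4.6% higher and 2.18% lower. With at least 10 cytosines it was 27.3% at HOXD and 16.0% of all such regions, 11.1% higher and 4.93% lower. Without the regions at 0 it was 8.11% at HOXD and 8.78% of the table, 5.96% higher and 2.83% lower. The median difference of 11.1 points was 14.8 over the 27 regions overlapping a gene and 10.2 within 20000 bases. It was 15.7 over the 11 regions with at least 10 cytosines, against 28.7 over all such regions of the table. Without the regions at 0 in one group and 25% to 33.3% in the other it was 8.66, against 4.15 over the whole table. The mean weighted by cytosines was 5.22 points, against 13.5 over all regions. The median stayed at 11.1 points within 5000 bases and with at least 5 cytosines. No paired analysis was possible because the table gives 1 mean per group, and for the same reason no replicate could be left out.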
